A study of Mus musculus with 3 samples.

Results

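The integrated stress response genes examined here were 9 transcripts, Atf4, Ddit3, Trib3, Chac1, Asns, Ddit4, Psat1, Slc7a11 and Sesn2, taken by symbol from 52636 genes in the count tables of a single-cell RNA sequencing experiment, and each symbol named a single row in every table. The cells were JM8.N4 mouse embryonic stem (ES) cells of strain C57BL/6N that carry RAD21, a cohesin subunit, fused to an auxin-inducible degron (AID), the tag that lets auxin trigger breakdown of the protein. Control cells received no auxin and auxin cells received 500 μM indole-3-acetic acid for 6 h. Both groups grew without feeders on gelatin in serum with LIF and 2i inhibitors, and both carried the degron and the Tir1 receptor it needs. Unedited cells treated with auxin were not analysed here, so effects of auxin itself and of RAD21 loss cannot be told apart here. The comparison asks whether acute cohesin loss is accompanied by a change in these stress transcripts, in mean level or in how they vary together from cell to cell.

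The integrated stress response is the route by which kinases that sense amino acid shortage, misfolded protein, heme shortage or double-stranded RNA phosphorylate the translation factor eIF2alpha. General translation then falls while the mRNA of the transcription factor ATF4 is translated more, and ATF4, with C/EBP-family partners such as CHOP, the product of Ddit3, switches on genes for amino acid synthesis and import, for feedback and, in prolonged stress, for cell death. The DNA element that ATF4 and its C/EBP partners bind is known as the C/EBP-ATF response element. Transcript levels, the readout here, miss the translational control of Atf4 itself.

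Smart-SCRB, a plate-based method that counts unique molecular identifiers (UMIs) at the 3′ ends of transcripts, was run on 16 plates of 96 wells. After keeping cells with more than 2600 detected genes, replicate 1 had 168 control and 169 auxin cells, replicate 2 had 371 and 290, and replicate 3 had 85 and 84. Median UMIs per cell were 104442 and 113617, 143842 and 187088, and 72317 and 75376.5 in the same order. In replicate 3, 2 of 4 plates carry a condition in the deposited annotation that differs from the plot of detected genes in the study, and these 2 plates were left out of comparisons of auxin with control. The degron acts on protein, so no transcript in these tables checks RAD21 depletion. Of 7 ES cell markers, Sox2 was listed at 0 in replicates 2 and 3, where Pou5f1 stood between 5.81 and 12.5 CPM (UMIs per 1000000 UMIs of the group) against 228 to 273 in replicate 1. Nanog stood at 58.6 CPM in control cells of replicate 2 against 496 and 525 in replicates 1 and 3, and Tfcp2l1 at 4.10 against 249 and 299.8. All plates of replicate 2 were below all plates of replicate 1 for 7 of 7 markers, beside 9.91% of all genes. Fibroblast feeder markers summed to at most 9.23 CPM and primitive endoderm markers to at most 19.1 CPM in any group. Of 3249 genes with at least 50 CPM in replicate 1, 58 were listed at 0 in both other replicates, none of them among the 9, so levels are compared between replicates with that limit.

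The promoters of the 9 genes were read first for the C/EBP-ATF core. The core searched was TGATGNAA, on either strand, in the RefSeq windows of build GRCm38.p6 that run from 250 bases before to 50 bases after each gene's start. Of the 9 members 4 held it, Chac1, Trib3, Slc7a11 and Asns, against 4.51% of the 27025 genes in that table. The windows are written 5′ to 3′ along the gene's strand, with the core in capitals.
Chac1, chr2:119351038-119351067, plus strand: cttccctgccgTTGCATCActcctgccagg
Trib3, chr2:152344028-152344057, minus strand: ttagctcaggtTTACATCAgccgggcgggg
Slc7a11, chr3:50443651-50443680, minus strand: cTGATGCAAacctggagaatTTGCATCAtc
Asns, chr6:7693214-7693243, minus strand: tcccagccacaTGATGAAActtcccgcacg
Counted from the RefSeq start, the core began 193 bases before Chac1 and 23 bases before Asns, and 14 bases after the start of Trib3. Slc7a11 held it at 66 and again, on the opposite strand, at 47 bases before its start. Starts differ between annotations, and before and after change with the choice. From the GENCODE gene starts, whose positions are given with each gene below, the core lay 180 bases before Chac1, 14 before Trib3, 65 and 46 before Slc7a11 and 22 bases after the start of Asns. A match of letters is a description and not a measured binding site, and the other 5 members have no match in these 300 bases only. In the wider lists, of the promoters in the table, the core was in 5 of 7 for tRNA synthetases, 3 of 9 for bZIP partners, 3 of 9 for other ATF4 targets, 1 of 9 for serine, one-carbon and proline synthesis, 1 of 5 for amino acid transporters, and 0 of 6, 0 of 4 and 0 of 11 for eIF2alpha genes, NRF2 targets and endoplasmic reticulum (ER) chaperones.

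In control cells, the largest ratio of a member's level between replicates exceeded its largest ratio between auxin and control. This did not hold in auxin cells for Atf4, which differed at most 1.27 times between replicates there. In control cells, Chac1, whose product degrades glutathione, was at 0.943 CPM in replicate 1, 102 in replicate 2 and 3.96 in replicate 3. Trib3, a pseudokinase that feeds back on ATF4, was at 6.33, 119.5 and 30.01 CPM, and Atf4 at 200, 498 and 256 CPM. Asns, the asparagine synthetase gene, had the opposite order, with 1198, 371 and 1274 CPM. All 8 plates of replicate 2 lay above all 4 plates of replicate 1 in 7 of the 9 members and below them in 1, Asns. Atf4 was the exception, because its lowest replicate 2 plate, at 248 CPM, was just below the highest replicate 1 plate, at 250 CPM. That separation was common, since 36.1% of the 17514 genes tested were higher in all plates of replicate 2 than in all of replicate 1, and 9.91% were lower. Plates of replicate 3, with the 2 disputed ones included because condition plays no part between replicates, were set against the others too. The plates of replicate 2 were all higher for Ddit4 and Sesn2, beside 10.2% of all genes, and all lower for Asns, beside 12.4%. Replicate 3 was above replicate 1 in all plates for 4 members, Atf4, Ddit3, Trib3 and Slc7a11, beside 39.2% of all genes, and below it for 0, beside 7.83%. With the settled plates of replicate 3 only, Chac1 joined Ddit4 and Sesn2, beside 14.1% of all genes, Asns was again lower, beside 17.2%, and Psat1 joined the 4 that were above replicate 1, beside 46.8%, with 0 below it, beside 10.4%. The summed level of the 9 genes was 1757 to 2073 CPM in control cells and 1241 to 2189 CPM in auxin cells, most of it Asns, Psat1 and Atf4.

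**Figure D1:**
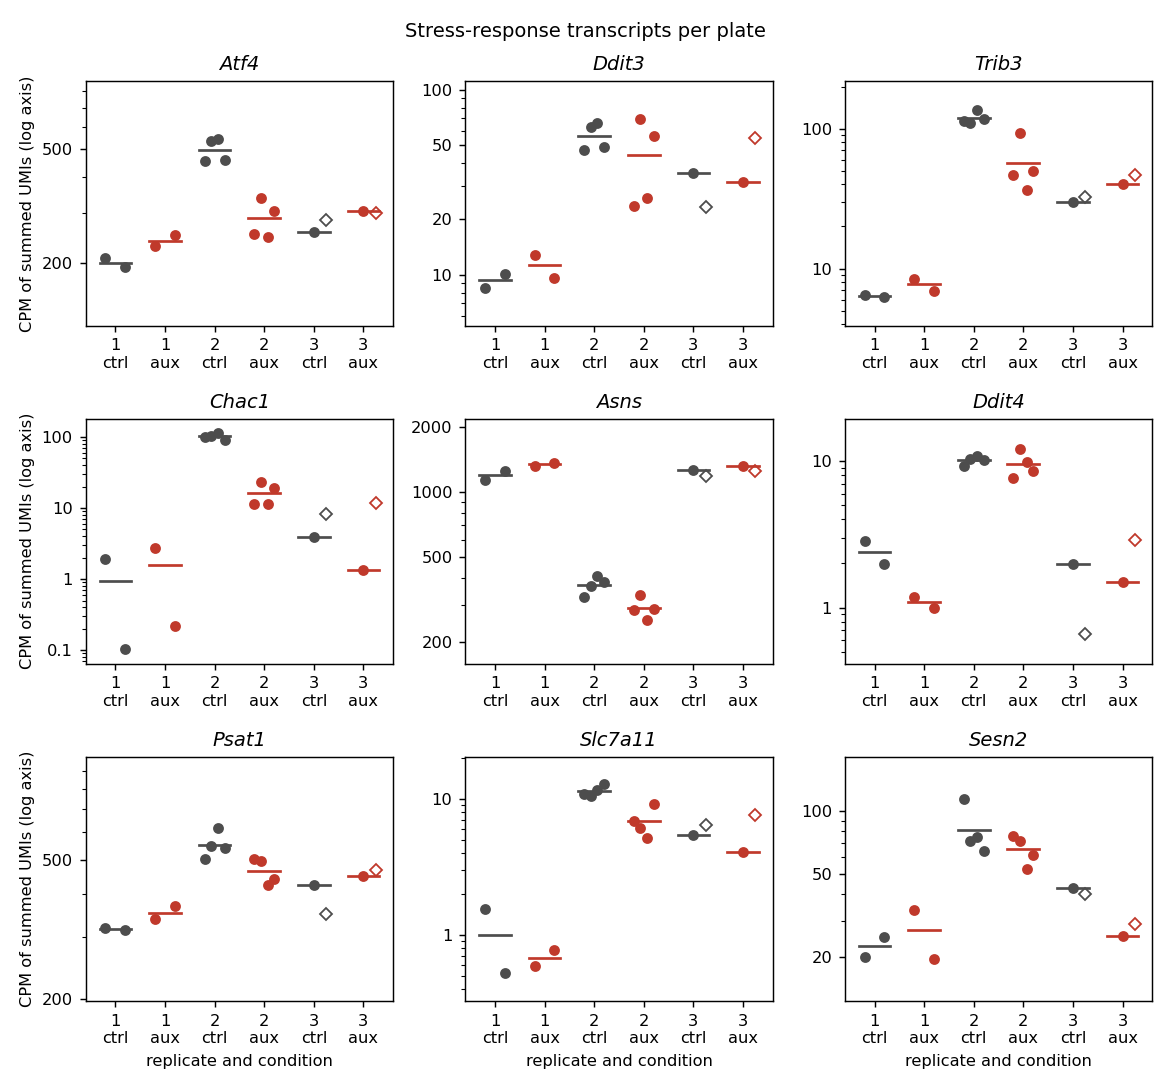
Summed UMIs per 1000000 UMIs (CPM, log axis) of each of the 9 genes in every plate, grouped by replicate and condition (ctrl, control, grey; aux, auxin, red). Points are plates, lines the level of all cells of the group, and open diamonds the 2 plates of replicate 3 with a disputed condition, which do not enter the lines. Chac1 stands near 100 CPM in the 4 control plates of replicate 2, between 11.3 and 22.9 CPM in its auxin plates, and at most at 11.9 CPM in the plates of the other replicates.

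No member was called between auxin and control. With counts summed per replicate and condition, edgeR's quasi-likelihood test called 0 of the 9 members and 0 of all 17514 genes at an adjusted p under 0.05 (percent called 0), where 33 genes had a raw p below 0.05. This fit leaves the replicate out of the model, and on simulated data it called no changed gene. Its lack of calls therefore does not show an absence of change. DESeq2 called 0 too, where 66 genes had a raw p below 0.05, though it gave Chac1 no adjusted p. Adding the replicate as a block gave 3 called genes in edgeR (0.0171%) and 57 in DESeq2 (0.325%), and 0 were members. DESeq2 with the block gave no adjusted p for 8828 of the 17514 genes, Ddit4 and Slc7a11 among them, so these could not be called. That block fitted without replicate 1 called 1 member, Chac1, at a background of 0.0712%, an alternative added after seeing the data. All 9 adjusted p-values of edgeR without the block were 1.00. The log2 fold changes, auxin minus control, were -2.46 ± 1.73 for Chac1, -0.64 ± 1.00 for Slc7a11, -0.58 ± 1.00 for Trib3, -0.31 ± 1.02 for Ddit4, -0.30 ± 0.50 for Sesn2, -0.21 ± 0.63 for Ddit3, -0.19 ± 0.30 for Atf4, -0.03 ± 0.19 for Psat1 and 0.07 ± 0.74 for Asns (SE from edgeR's F, n = 3 sums per group). The median over the 9 was -0.30, beside -0.0010 over all genes tested. Without replicate 2 the values of Atf4, Trib3 and Psat1 were above 0, at 0.25, 0.41 and 0.12, that of Chac1 was -0.59, and with the block that of Asns was below 0, at -0.054. With the block, Chac1 stood at -1.62 ± 0.56 (edgeR adjusted p = 0.771). Ddit4 and Slc7a11 were lower after auxin in 3 of 3 replicates, as were 13.7% of all genes, and 0 members were higher in 3 of 3, against 15.6% of all genes. With 3 replicates, an exact permutation of the signs of a gene's differences (two-sided) cannot go below p = 0.25.

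Within replicates, the members differed in direction, as the plot of log2 differences by replicate shows. In replicate 2 all 9 were lower after auxin, against 46.0% of all genes tested, with a median log2 difference of -0.35 beside 0.04 over all genes. In replicate 1, 7 of 9 were higher, against 50.7% of all genes, with a median of 0.26 beside 0.03. In replicate 3, 4 were higher and 5 lower, with a median of -0.15 beside -0.04. The replicate 3 values turned with the disputed plates. With all 4 plates as deposited Ddit3 went from 0.899 to 1.49 times control, Ddit4 from 0.756 to 1.74 and Chac1 from 0.340 to 1.01, and with these plates placed the other way Trib3 went from 1.34 to 0.940, Psat1 from 1.07 to 0.892 and Asns from 1.04 to 0.994, while Sesn2 went from 0.593 to 0.932 without turning. Each of these sets 1 sum beside 1 sum, with no test, and plates of a replicate repeat the measurement and not the treatment.

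**Figure D2:**
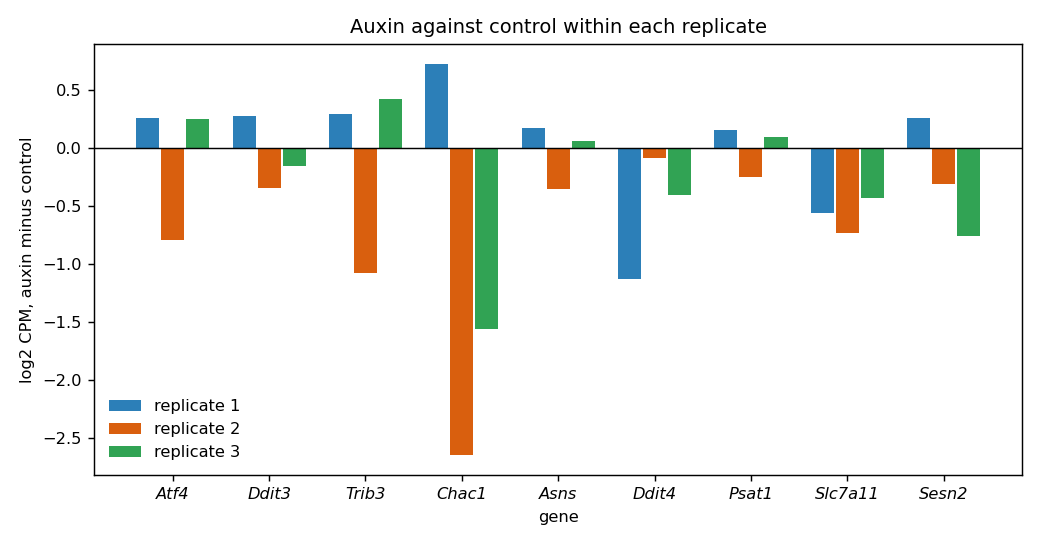
Difference in log2 CPM, auxin minus control, of each of the 9 genes in each replicate (blue, 1; orange, 2; green, 3), from the CPM of all cells summed. All 9 bars of replicate 2 lie below 0, down to -2.64 for Chac1, while 7 of the 9 bars of replicate 1 lie above it.

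The transcription factors and their feedback inhibitor come first. Atf4 (chr15:80255184-80257541, plus strand) encodes the factor at the center of the response. Its control plates read 208 and 194 CPM in replicate 1, 457, 534, 542 and 460 CPM in replicate 2, and 256 CPM in replicate 3, and its auxin plates read 230 and 250, 254, 338, 248 and 306, and 305 CPM. The plates of replicate 2 did not overlap and auxin was lower, 0.576 times control. The plates of replicate 1 did not overlap either, and auxin was higher, 1.20 times control, as it was in replicate 3, at 1.19 times. Plates that did not overlap, with auxin lower, were found in replicate 2 for 5.78% of all genes, and with auxin higher in replicate 1 for 17.8%.

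Ddit3 (chr10:127290774-127296288, plus strand) encodes CHOP, a C/EBP-family factor known for its part in stress-linked cell death. The mm10 annotation used here for positions has 2 genes of this name, while the count tables hold a single row. Whether the counting split reads between such genes is not known, so its level is uncertain. Its CPM went from 9.32 in control to 11.3 in auxin cells of replicate 1, from 56.3 to 44.3 in replicate 2 and from 35.4 to 31.9 in replicate 3. The Ddit3 auxin plates of replicate 2 spread from 23.4 to 69.6 CPM and enclosed the control plates, which ran from 47.1 to 65.8 CPM. In that replicate the share of cells with at least 1 Ddit3 UMI was 54.7% in control and 40.0% after auxin.

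Trib3 (chr2:152337422-152344032, minus strand) reached 114, 109, 137 and 117 CPM in the control plates of replicate 2 and 46.8, 93.5, 36.7 and 49.8 CPM in its auxin plates. All auxin plates lay under all control plates there, for a ratio of 0.475. In replicates 1 and 3 auxin stood at 1.22 and 1.34 times control, and in replicate 1 the auxin plates, at 8.45 and 6.96 CPM, were above the control plates, at 6.43 and 6.23 CPM.

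Chac1 (chr2:119351229-119354381, plus strand) had the widest range. The control plates of replicate 2 read 101, 102, 113 and 91.9 CPM and the auxin plates 11.6, 22.9, 11.3 and 18.9 CPM, a ratio of 0.160. No auxin plate came near the control plates. Elsewhere Chac1 was close to its detection limit, with 17 and 30 UMIs in all control and auxin cells of replicate 1 and 24 and 9 UMIs in those of replicate 3. The ratio in replicate 3, 0.340, rests on those counts and on the 2 settled plates, and was 1.01 with all 4 plates as deposited and 0.634 with the disputed plates placed the other way.

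The genes for amino acid synthesis and import come next. Asns (chr6:7675169-7693254, minus strand) went from 1198 CPM in control to 1347 CPM in auxin cells of replicate 1, from 371 to 289.8 CPM in replicate 2 and from 1274 to 1329 CPM in replicate 3. Its auxin plates were above the control plates in replicate 1 and overlapped them in replicate 2. Psat1 (chr19:15904678-15947337, minus strand), which encodes phosphoserine aminotransferase of the serine pathway, had the smallest ratio of highest to lowest plate over replicates 1 and 2, from 315 to 617 CPM, and in control and auxin cells stood at 317 and 353, 552 and 465, and 422 and 451 CPM. Its plates did not overlap in replicate 1, with auxin higher, nor in replicate 2, with auxin lower, where the gap was 501 CPM in the highest auxin plate against 502 CPM in the lowest control plate. Slc7a11 (chr3:49892526-50443614, minus strand), the cystine transporter subunit xCT, had 0.999 and 0.676, 11.4 and 6.82, and 5.44 and 4.04 CPM. It was the only member besides Ddit4 that was lower after auxin in each replicate, on 18 and 13 UMIs in replicate 1 and 33 and 27 UMIs in replicate 3.

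Ddit4 and Sesn2 encode REDD1 and sestrin 2, which restrain the growth kinase complex mTORC1. Ddit4 (chr10:59949669-59951834, minus strand) had 2.39 and 1.09, 10.2 and 9.57, and 1.98 and 1.50 CPM in control and auxin cells. Its plates were apart in replicate 1 only, where 43 UMIs were counted in control and 21 UMIs in auxin cells. Sesn2 (chr4:132492032-132510501, minus strand) had 22.7 and 27.1, 81.2 and 65.7, and 42.9 and 25.4 CPM. Its plates overlapped in replicates 1 and 2, and a single control plate of replicate 2, at 114 CPM, lay well above the other 3, at 64.4 to 75.5 CPM.

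In replicate 2 the plates of auxin and control were thus apart, with auxin lower, for 5 of 9 members, Atf4, Trib3, Chac1, Psat1 and Slc7a11, beside 5.78% of all genes, and for 0 with auxin higher, beside 7.47%. In replicate 1 they were apart with auxin higher for 4, Atf4, Trib3, Asns and Psat1, beside 17.8% of all genes, and with auxin lower for Ddit4, beside 13.3%. Auxin cells of replicate 2 also had more UMIs than control cells and a larger share of cells with 4000 or fewer detected genes, 10.0% against 5.12%, and the part of these in the result was not tested beyond the stricter filter. With cells of more than 4000 genes alone, 4 members were apart, without Psat1, whose highest auxin plate read 507 CPM against 503 CPM in the lowest control plate. The share of all genes apart under that filter was not computed, so this count has no background beside it. The median mitochondrial share of UMIs was 2.26% in control and 2.10% in auxin cells of that replicate.

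The share of cells with any UMI also differed. In replicate 2, Chac1 was found in 61.5% of control cells (95% interval 56.3 to 66.4%) and 17.2% of auxin cells (13.1 to 22.1%), by exact Clopper-Pearson intervals, which cover counting error only. Replicate 1 had 2.38% and 4.14%, and replicate 3 had 7.06% and 4.76%. After each cell was thinned to 20000 UMIs the replicate 2 shares were 53.2% and 13.0%, in the same order. Trib3 was found in 68.5% of control and 51.0% of auxin cells of replicate 2, or 59.5% and 37.5% after thinning, while auxin cells had the larger share in replicate 1, 13.6% against 11.9%, and in replicate 3, 42.9% against 36.5%. Thinning left 7.69% against 5.95% in replicate 1 and 29.1% against 28.6% in replicate 3. Of the 9 members, 2 had a smaller share after auxin in replicate 1, 8 in replicate 2 and 7 in replicate 3, where thinning left 4. Over all genes tested the share with fewer positive cells after auxin was 35.9%, 46.9% and 49.9% in replicates 1, 2 and 3. For Slc7a11 the shares in replicate 2 were 47.7% and 45.9% before and 19.6% and 11.9% after thinning. Ddit4 was the sole member with a larger share after auxin in replicate 2, 55.9% against 51.2%. Atf4, Asns and Psat1 were found in at least 89.3% of cells in every group.

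**Figure D3:**
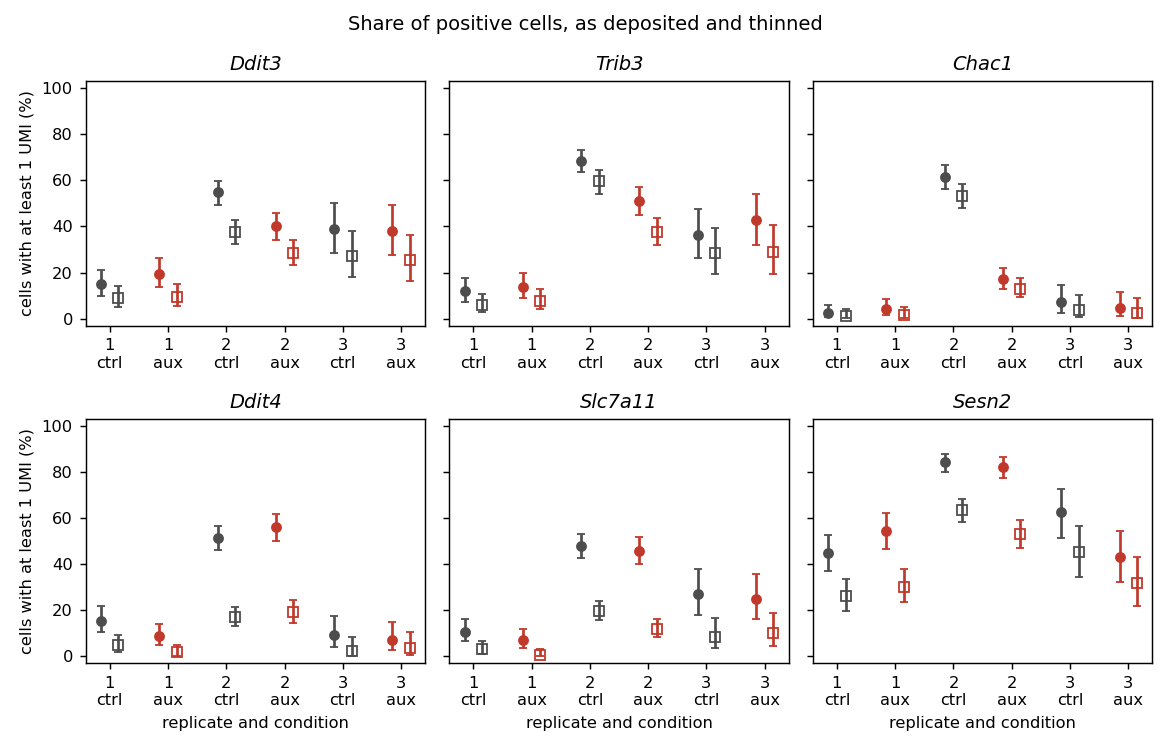
Percent of cells with at least 1 UMI for the 6 less abundant genes, by replicate and condition (ctrl, control, grey; aux, auxin, red). Filled circles are counts as deposited and open squares counts thinned to 20000 UMIs per cell, with exact 95% intervals. The Chac1 share is 61.5% in control and 17.2% in auxin cells of replicate 2 and stays at or under 7.06% in the other replicates.

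Chac1, Ddit3 and Trib3 were more concentrated in a few cells after auxin in replicate 2, and the part of their lower level in this was not tested. In auxin cells of replicate 2 the 29 cells richest in Chac1, 10% of the group, held 88.2% of its UMIs, against 39.4% for the 38 richest of the control cells. Ddit3 behaved alike, with 64.4% in auxin and 49.4% in control cells, and a single auxin cell held 241 of its 2236 UMIs. For Trib3 the shares were 59.9% in auxin and 37.5% in control cells. Slc7a11 had 63.7% and 67.1%, Ddit4 47.0% and 45.2%, Sesn2 36.4% and 33.0%, and Asns 31.1% and 30.7%. Of control cells of replicate 2, 37.7% had UMIs of all 3 of Ddit3, Trib3 and Chac1, against 8.97% of auxin cells, 20.7% and 6.14% after thinning. In replicates 1 and 3 the share was between 0% and 2.35%, and the lowest counts were 0 of 168 cells and 0 of 84 cells. If an observed 0 is taken to allow 3 counts, these allow shares of up to 1.79% and 3.57%. That rule covers counting error only and not transcripts that were missed. Cells of replicate 2 with a Chac1 UMI had a median Atf4 level of 531 CPM in control and 444 CPM after auxin, and cells without had 302 and 223 CPM. Cells with a Chac1 UMI also had more UMIs in all, 160986 against 107907 in control cells and 202882 against 172890 in auxin cells (medians), so depth moved with this split and its part was not tested.

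Across cells, most pairs of the 9 genes had positive correlations in replicate 2, 34 of 36 in each condition, against 21 and 24 of 36 in control and auxin cells of replicate 1 and 25 of 36 in each condition of replicate 3. The same count was not made for pairs of other genes. Chac1 had UMIs in 4 control and 7 auxin cells of replicate 1 and in 6 and 4 cells of replicate 3, so its pairs there rest on few cells. The mean Spearman correlation of CPM over the 36 pairs went from 0.0046 in control to 0.038 in auxin cells of replicate 1, from 0.260 to 0.194 in replicate 2 and from 0.068 to 0.105 in replicate 3. It was thus lower after auxin in replicate 2 and higher in the other replicates, and thinned to 20000 UMIs the replicate 2 means were 0.178 and 0.161. These values describe 84 to 371 cells that share a culture and libraries, and the part of depth in them was not tested beyond thinning. The summed CPM of the members correlated with the cell's UMI count at 0.310 in control and -0.0019 in auxin cells of replicate 2, and with its mitochondrial share at -0.310 and -0.400. The strongest pair in control cells of replicate 2 was Atf4 and Trib3, at 0.58, followed by Asns and Psat1, at 0.55, and in auxin cells Asns and Psat1, at 0.49. Thinning turned the order in these control cells, to 0.472 for Asns and Psat1 and 0.445 for Atf4 and Trib3. Asns and Psat1 was also the pair with the highest mean over the 6 groups, 0.30, with a range of 0.061 to 0.55. Slc7a11 stood outside, with correlations between -0.012 and 0.036 to the other 8 genes in control cells of replicate 2, and between -0.041 and 0.106 in its auxin cells, where thinning gave up to 0.211, with Chac1.

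**Figure D4:**
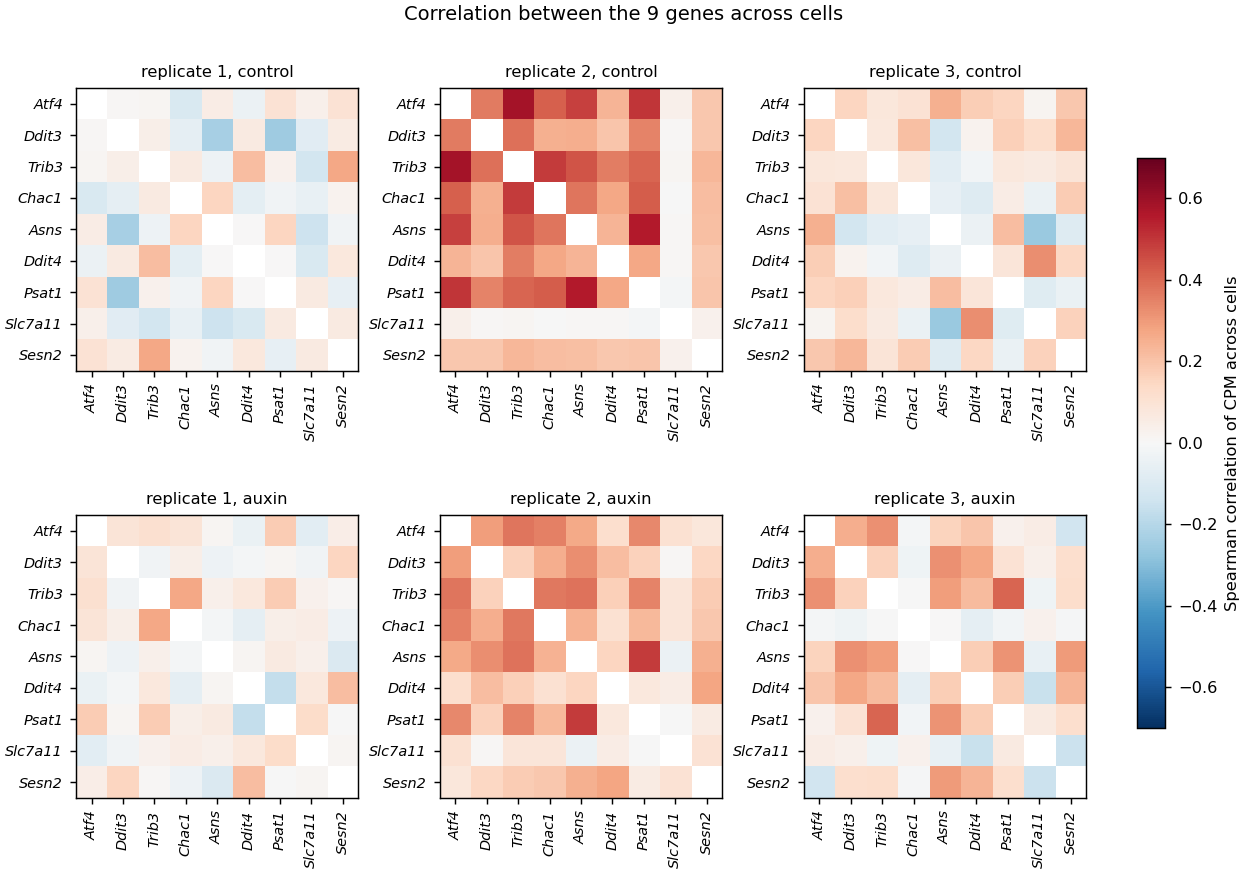
Spearman correlation of CPM per cell between the 9 genes in each replicate and condition, on a color scale from -0.7 (blue) to 0.7 (red), with the diagonal blank. The mean over the 36 pairs is 0.260 in control cells of replicate 2 and 0.0046 in those of replicate 1, and the row of Slc7a11 lies between -0.012 and 0.036 in control cells of replicate 2.

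The genes most like the 9 were sought among 6868 genes with a mean of at least 1 UMI per cell in every replicate. Members among these were counted but left out of the ranking. The measure was the mean over the 6 groups of the Spearman correlation with the summed CPM of the members. Most of that sum was Asns, Psat1 and Atf4, so the less abundant members weigh less in it. The first 10 were Gars, Eif4ebp1, Nupr1, Mthfd2, Aldh18a1, Aars, Pck2, Bcat1, Ghitm and Nars, with means of 0.349 down to 0.270, against a median of 0.033 over all genes compared. Gars, Aars and Nars encode tRNA synthetases, and Mthfd2 and Aldh18a1 encode enzymes of mitochondrial folate and of proline synthesis. Their lowest correlation in any group was 0.050, for Nupr1. For single members, again with the 9 left out of the ranking, the nearest genes were Herpud1 for Atf4 (0.260), Sde2 for Ddit3 (0.146), Nupr1 for Trib3 (0.234), Slc3a2 for Chac1 (0.200), Gars for Asns (0.294), Plk2 for Ddit4 (0.216), Eif4ebp1 for Psat1 (0.377), Cenpu for Slc7a11 (0.141) and Ccng1 for Sesn2 (0.224). The second nearest were Mthfd2, Renbp, Slc3a2, Mthfd2, Bcat1, Btg2, Mthfd2, Gsk3b and Btg2 in the same order. Some of these pairs fell below 0 in their lowest group: Trib3 with Nupr1 (-0.051) and with Slc3a2 (-0.110), Atf4 with Mthfd2 (-0.076) and Chac1 with Mthfd2 (-0.087). The remaining pairs were above 0 in every group.

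The wider pathway was read from lists of genes upstream, beside and downstream of ATF4. No listed gene was called by edgeR with or without the block, so the values below are levels in CPM, control then auxin. Of the 11 genes for serine, one-carbon and proline synthesis, all were lower after auxin in replicate 2, 6 of them with plates apart, beside 5.78% of all genes, and 9 were higher in replicate 1, also 6 with plates apart, beside 17.8%. Mthfd2 went from 140 to 191, 659 to 376 and 238 to 264 CPM in replicates 1, 2 and 3. Gpt2, an alanine aminotransferase gene, had 33.2 and 34.7, 120 and 49.6, and 55.9 and 51.3 CPM, and Cth, of cysteine synthesis, 124 and 157, 61.1 and 46.5, and 89.0 and 112 CPM.

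Of 9 amino acid transporters, 8 were lower after auxin in replicate 2, 7 with plates apart, beside 5.78% of all genes, while 4 were higher and 5 lower in replicate 1 and 6 higher and 3 lower in replicate 3. Slc3a2, the shared heavy chain that Slc7a11 and Slc7a5 pair with, had 682 and 714, 1706 and 1208, and 864 and 944 CPM. Slc7a5 was lower in each replicate, from 14.2 to 8.63, 19.1 to 9.59 and 9.73 to 5.98 CPM, and Slc38a2 had 22.1 and 40.6, 118 and 96.9, and 30.2 and 53.7 CPM. Of 12 tRNA synthetases, 10 were lower in replicate 2, 9 higher in replicate 1, and 8 higher and 4 lower in replicate 3. Gars, Nars and Yars had 649 and 531, 361 and 275, and 114 and 107 CPM in replicate 2. The median log2 difference of the synthetases was -0.25 there, beside 0.086 and 0.090 in replicates 1 and 3. Yars had the largest rise of the list in the fit without the block, a log2 fold change of 0.15.

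Of 12 other ATF4 targets, of which Map1lc3b was listed at 0 outside replicate 1 and Fgf21 in replicate 1, 9 were lower in replicate 2, with a median log2 difference of -0.80, and 9 were higher in replicate 1, with a median of 0.25. In replicate 3, 7 were higher and 4 lower, with a median of 0.05. Eif4ebp1, a translation repressor, had 2653 and 2159 CPM in replicate 2. Its plates of both conditions spanned 2256 to 2581 CPM in replicate 1 and 2556 to 2870 CPM in replicate 3. Ndrg1 had the most negative fold change of the list, with 9.43 and 2.50, 8.14 and 2.32, and 4.29 and 1.65 CPM, a log2 fold change of -1.80 ± 0.62 (edgeR adjusted p = 1.00, and 0.386 with the block). Its plates were apart in replicate 1 and overlapped in replicate 2. Sqstm1, the autophagy receptor p62, was higher in each replicate, at 175 and 209, 189 and 246, and 197 and 227 CPM.

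Among the 9 bZIP partners and other stress factors, Nupr1 had 31.5 and 55.0, 268 and 110, and 93.7 and 139 CPM, while 5 of the list were higher in replicate 2. Jdp2 stood at most at 3.74 CPM. Of the 7 genes for eIF2alpha, its kinases and phosphatase subunits, 6 were higher after auxin in replicate 2, 4 in replicate 1 and 1 in replicate 3, with median log2 differences of 0.11, 0.02 and -0.31. Ppp1r15a, the GADD34 feedback subunit that ATF4 signaling induces, was the one that was lower in replicate 2, at 30.6 and 19.0 CPM with plates apart. Eif2s1, eIF2alpha itself, had 488 and 488 CPM there and counts among the 6 by less than 1 CPM, and Eif2ak3, the PERK kinase, had 4.72 and 7.70, 6.12 and 8.35, and 8.08 and 5.68 CPM.

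The ER chaperones, targets of the IRE1 and ATF6 arms that run beside eIF2alpha signaling, were mostly higher in replicate 2. There 11 of 12 were higher after auxin, 8 with plates apart, beside 7.47% of all genes, with a median log2 difference of 0.36. Hspa5, which encodes the chaperone BiP, had 472 and 593, 496 and 849, and 579 and 593 CPM, and Hsp90b1 656 and 725, 614 and 1004, and 758 and 733 CPM. Xbp1, a factor of the IRE1 arm, was the exception with 186 and 169 CPM. In replicate 1 all 12 were higher, 9 with plates apart beside 17.8% of all genes, and in replicate 3, 5 were higher and 7 lower. The chaperones and the 9 members thus both had positive medians in replicate 1 and medians of opposite sign in replicate 2, a difference between lists that was not tested.

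**Figure D5:**
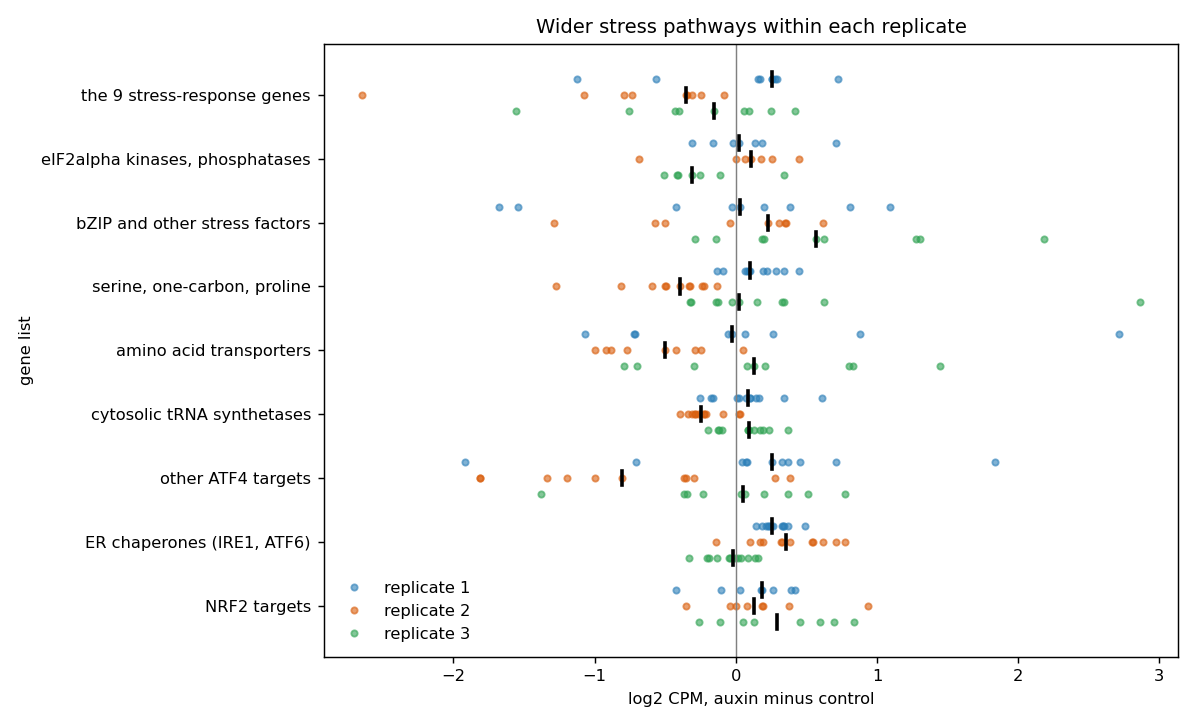
Difference in log2 CPM, auxin minus control, of each gene of the 9 stress-response genes and 8 wider lists, by replicate (blue, 1; orange, 2; green, 3). Points are genes with a UMI in both conditions, and black bars are list medians. In replicate 2 the median is -0.80 for other ATF4 targets and 0.36 for ER chaperones.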

How the data were processed

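The authors made Smart-SCRB libraries, mapped them to mm10 and deposited raw UMI counts for each gene in each well, neither normalized nor filtered. The aligner, counting program and annotation are not given in the sources used here. The authors also deposited, per cell, counts of detected genes and of all UMIs, equal to those recomputed in 1536 of 1536 wells, the percent of a well's counts that were ERCC, and a saturation fraction per plate (0.283 to 0.579). The tables held 52636 genes, 92 ERCC transcripts and 11 transgenes, and the latter 2 kinds were left out. No 2 wells held identical counts (0 found).

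The study's filter (over 2600 genes detected) left 1167 cells on 14 plates. The deposited annotation gives each plate's condition, and in replicate 1 its RAD21_positive and RAD21_negative labels were read as control and auxin. The 2 disputed plates of replicate 3 held 168 cells. Counts were summed per replicate and condition (6064936 to 50448320 UMIs), since cells and plates of 1 culture are not replicates. The study's reporting summary calls the replicates biological and its methods describe the procedure as repeated, while the labels only number them. Genes passing filterByExpr were tested with edgeR 4.0.16 (quasi-likelihood, TMM, Benjamini-Hochberg, threshold 0.05) in R 4.3.3, without a block. DESeq2 1.42.0, tried as an alternative, and all edgeR settings are compared in the closing section. Tested on simulated data with known changed genes, the fit without the block called no changed gene and the fit with it called some, along with more false calls than its threshold allows, so an absence of calls without the block does not show an absence of change. The same number marks both conditions of 1 deposited sample, and the deviations of its sums from the group means correlated at 0.917, 0.864 and 0.761 over 19330 genes, so the replicate was also fitted as a block.

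CPM are UMIs per 1000000 over all genes; UMIs mark 3′ ends, so no length scaling was used. Fold changes are auxin minus control on the log2 scale. Thinning used seed 1, and cells with fewer than 20000 UMIs were left out. Promoter windows came from RefSeq (GRCm38.p6) and matched all 9 members, and gene positions came from GENCODE for mm10 by gene identifier. From each wider list the text names, by rule, the most abundant gene and those with the largest rise and fall. The members, lists and rule were chosen with earlier results of these data known. Sums and figures were made in Python 3.11.15.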

Additional observations from a re-analysis of the deposited data

How the results depend on the processing

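Over all genes, 0 calls became 3 with the replicate block, 57 with DESeq2 and the block, and 14, 32 and 2 with the block without replicates 1, 2 and 3 in turn. Over 17 other settings, 0 members and 0 genes of the wider lists were called, apart from Chac1 with the replicate block without replicate 1, a setting chosen after seeing the data (log2 fold change -2.45, edgeR adjusted p = 0.0066, where 0.0712% of genes were called). The count of members called over the settings that leave out a replicate was 0 to 1. Leaving out replicate 2 raised the members higher after auxin in all remaining replicates from 0 to 4 (range 0 to 4), Asns, Atf4, Psat1 and Trib3, and leaving out replicate 1 raised those lower from 2 to 5 (range 2 to 5), adding Chac1, Ddit3 and Sesn2. With all plates of replicate 3 as deposited, 1 member, Slc7a11, was lower in all replicates. When each cell was weighted equally, Chac1, Ddit3 and Slc7a11 were. In replicate 3 the members with a smaller share of positive cells after auxin went from 7 to 4 on thinning.

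Without replicate 2 the log2 fold change turned for Atf4 (0.25, lowest -0.38 over the replicates left out), Trib3 (0.41, lowest -0.97) and Psat1 (0.12, lowest -0.097), and with the block also for Ddit3 (0.054), with 0.25, 0.35 and 0.12 for the former. The deposited annotation of replicate 3 turned Ddit3 (0.050, with the block 0.13) and Psat1 (0.019, with the block 0.039). Asns turned with the replicate block (-0.054), DESeq2 with the block (-0.071), the block with the stricter cell filter (-0.050), the block with either placement of replicate 3 (-0.054 and -0.090), the block without replicates 1 and 3 in turn (-0.14 and -0.13) and without replicate 1 alone (-0.0021, highest 0.11 over the replicates left out). Over all 18 settings Chac1 ranged from -2.58 to -0.37. The block with all replicates changed no member's call. The mean correlation between members moved by over 1.5 times in places. Raw UMI counts gave 0.035 and 0.104 for control and auxin cells of replicate 1, 0.390 for control cells of replicate 2, and 0.148 and 0.180 for control and auxin cells of replicate 3. Thinning gave 0.044 and 0.064 for control and auxin cells of replicate 3 and -0.0090 for control cells of replicate 1. The latter cells also had 0.0084 by Pearson correlation of log2 CPM and 0.0028 with the stricter cell filter. DESeq2 gave no adjusted p for Chac1 without the block, nor for Ddit4 and Slc7a11 with it. The cause of these turns was not tested. Chac1, Ddit4 and Slc7a11 had few UMIs in replicates 1 and 3, so their differences there rest on low counts.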

Other observations

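The NRF2 pathway, a separate defense against oxidative stress that shares Slc7a11 as a known target, had higher levels after auxin for most listed genes. Of its 8 listed genes, 6 had higher CPM after auxin in each replicate, not always the same 6, and 4 were higher in all 3 replicates, beside 15.6% of all genes. Plates were apart for 1 gene with auxin higher and 1 with auxin lower in replicate 1, beside 17.8% and 13.3% of all genes, and for 1 with auxin higher in replicate 2, beside 7.47%. Srxn1, a sulfiredoxin gene, had 22.6 and 30.2, 20.2 and 38.6, and 12.4 and 22.1 CPM in control and auxin cells, a log2 fold change of 0.67. Gsr had 339 and 384, 258 and 258, and 226 and 234 CPM, and Hmox1 16.7 and 19.0, 21.9 and 17.1, and 21.9 and 20.3 CPM. No NRF2 gene was called by edgeR.

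Of the ES cell markers, Dppa5a had 7998 and 7406, 3560.0 and 2118, and 6308 and 6887 CPM in control and auxin cells of replicates 1, 2 and 3, Esrrb 66.8 and 61.7, 17.7 and 6.78, and 125 and 84.2 CPM, and Zfp42 275 and 303, 83.5 and 73.1, and 184 and 240 CPM. Dppa5a, Esrrb and Nanog had plates apart with auxin lower in replicate 2, as did 5 of the 9 stress-response genes, beside 5.78% of all genes. Among feeder and primitive endoderm markers, Thy1, Col1a1, Dab2, Gata4 and Sox17 stood at or under 10.2 CPM in every group.

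The 2 disputed plates of replicate 3 were read by their deposited labels without entering a comparison of auxin with control. The plate annotated as control had 282 CPM of Atf4, 32.4 of Trib3, 8.35 of Chac1 and 40.3 of Sesn2. The plate annotated as auxin had 299 CPM of Atf4, 46.4 of Trib3, 11.9 of Chac1 and 28.8 of Sesn2.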
